A study of Mus musculus with 6 samples.

Results

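The genes described here encode the proteins of the cytosolic ribosome. They were taken from the 32285 genes of the count tables by symbol: Rpl or Rps followed by a digit, plus Rplp0, Rplp1, Rplp2 and Rpsa, with pseudogene rows (names holding -ps) and the Rps6k kinases left out. This gave 86 genes. Of these, 77 were core subunits (46 of the large and 31 of the small subunit), 8 were paralogues such as Rpl3l and Rps27l, and 1, Rps19bp1, matched by name although its product binds a ribosomal protein and is not part of the ribosome. The cells came from the left quadriceps of wild-type male C57BL/6 mice aged 2 to 3 months, in 3 groups of 4 animals. One group was uninjured, one had a subcritical defect of 2 mm and one a critical volumetric muscle loss defect of 3 mm, and the labels give day 7 for all 3. Volumetric muscle loss is the removal of a piece of muscle, and a critical defect is one too large to grow back. The animals of a group were tagged with hashtag antibodies, pooled and run as 1 single-cell 5' library, so that group, pool and library cannot be told apart.

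Each ribosome holds one copy of nearly every one of these proteins, on a small subunit that reads the mRNA and a large subunit that joins amino acids, with a flexible stalk (Rplp0, Rplp1 and Rplp2) that recruits translation factors. Their mRNAs are among the most abundant in most cells. Many start with a run of C and T (the terminal oligopyrimidine tract), through which growth signals acting via mTOR and LARP1 set their translation and stability together. In injured muscle, new ribosomes accompany the growth and division of progenitor, immune and vascular cells.

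After filtering, 2134 uninjured, 2755 subcritical and 3012 critical cells remained, with median depths of 1806, 1277 and 1589 UMIs (counted transcript molecules) per cell. Any pair of libraries shared 10 to 16 cell barcodes. Cells were clustered and each class was named from at least 4 detected marker genes. The classes with at least 50 cells in both injured libraries were FAP-like (fibro-adipogenic progenitors, 645 subcritical and 781 critical cells), tenocyte-like (122 and 146), endothelial-like (603 and 625), mural-like (156 and 217), macrophage-like (407 and 497) and myogenic-like cells (99 and 118). Uninjured cells were enough in FAP-like (159), endothelial-like (1306) and mural-like cells (246). In these classes the clusters differed between groups: cluster 6 held 158 of the 159 uninjured FAP-like cells, while cluster 9 held 485 of the 781 critical ones. Cluster 11 held 797 of the 1306 uninjured endothelial-like cells, while cluster 2 held 320 of the 625 critical ones. Hashtags tied enough cells to single animals only in macrophage-like cells (4 subcritical and 4 critical animals) and in endothelial-like cells (4 uninjured, 3 subcritical and 3 critical animals). Tests were run there alone, and all other values are single libraries with intervals for counting error only.

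The 30 bases around the first annotated transcription start are shown for the genes that stand apart in the results below and for which RefSeq (GRCm38.p6, not the genome the reads were counted on) gave a start. Each runs from 15 bases before the start through 15 bases from it on, 5' to 3' on the gene's strand. Capitals mark a C followed by at least 4 further C or T that begins within 10 bases of the start, and where a window holds several such runs, the longest alone is in capitals. Rps28 (chr17:33824548-33824577, minus strand), Rpl38 (chr11:114668565-114668594, plus) and Rps21 (chr2:180257364-180257393, plus) were lower in critical cells. Rps24 (chr14:24490663-24490692, plus), Rps25 (chr9:44407699-44407728, plus) and Rps27 (chr3:90213634-90213663, minus) are followed by the retrogene copy Rps27rt (chr9:114982725-114982754, minus), then by Rplp0 (chr5:115559452-115559481, plus) and Rps2 (chr17:24720048-24720077, plus), which were higher after injury.
Rps28: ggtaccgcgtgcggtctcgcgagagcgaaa
Rpl38: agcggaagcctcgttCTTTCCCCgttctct
Rps21: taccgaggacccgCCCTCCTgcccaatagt
Rps24: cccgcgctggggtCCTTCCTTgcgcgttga
Rps25: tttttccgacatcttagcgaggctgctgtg
Rps27: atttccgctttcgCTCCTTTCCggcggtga
Rps27rt: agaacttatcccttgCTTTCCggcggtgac
Rplp0: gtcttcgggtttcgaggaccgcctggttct
Rps2: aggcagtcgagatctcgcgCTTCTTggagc
Such a run was found in 36 of the 66 genes with an entry (54.5%), against 7869 of 27025 genes of the whole promoter table (29.1%). The genes shown fell on both sides: Rps24 and Rpl38, which differed in opposite directions between the injuries, both held a run, and Rps28 and Rplp0 held none in this window. Rps29, Rpl7 and 18 further members had no entry.

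The ribosomal protein mRNAs took a large and class-specific share of all UMIs. In the critical library the share was 9.55% in macrophage-like, 11.4% in mural-like and 13.6% in tenocyte-like cells. It was 15.0% in endothelial-like, 15.9% in FAP-like and 22.6% in myogenic-like cells. Between critical and subcritical cells the share was lower in 5 of 6 classes and in 11 of 15 clusters. Against uninjured cells it was higher in all 3 classes, by 2.72 to 3.23 percentage points in critical and by 3.88 to 4.08 in subcritical cells. By cluster the picture was split: the critical share was higher in 4 of 8 clusters and the subcritical in 7 of 8. In endothelial-like animals the share was 12.1% ± 0.889 (SD, n = 4) in uninjured, 15.4% ± 1.05 (n = 3) in subcritical and 14.3% ± 0.709 (n = 3) in critical mice. The uninjured animals (11.3% to 13.2%) did not overlap with either injured group, and the injured groups overlapped. In macrophage-like animals the share was 10.3% ± 0.746 in subcritical and 9.89% ± 0.944 in critical mice (n = 4 each), a difference within the spread between animals. The share of UMIs from the mitochondrial genome moved alongside: it was 1.61 to 2.18 times as high in critical as in subcritical cells in 6 of 6 classes. Its part in the results below was not tested.

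**Figure D1:**
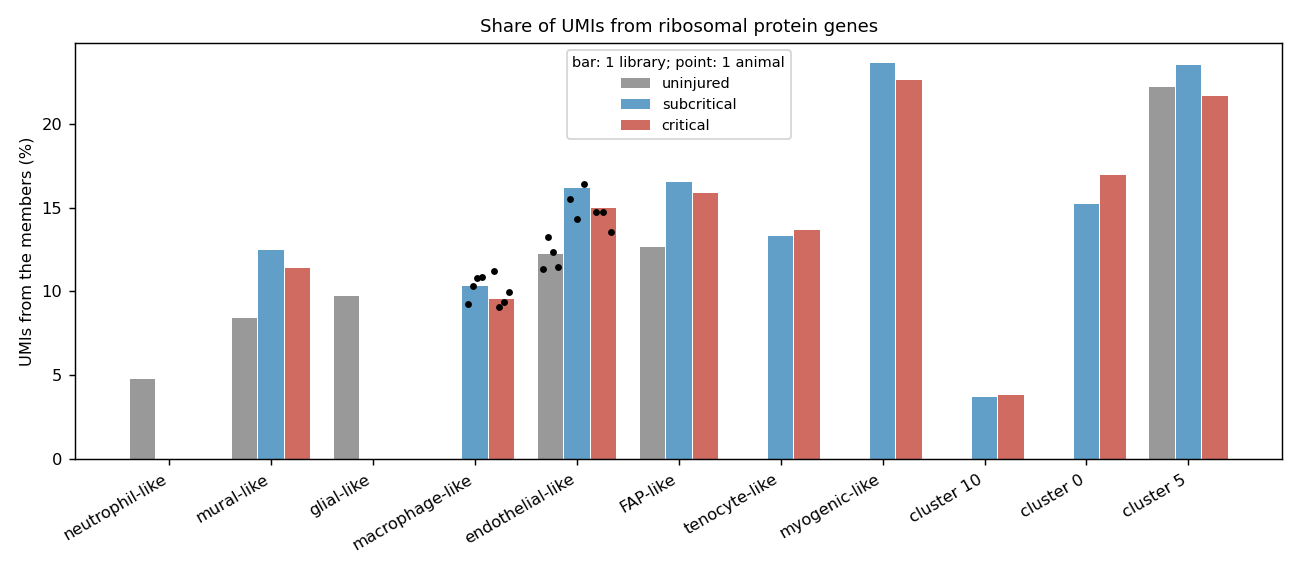
Share of UMIs (percent) from the 86 ribosomal protein genes by cell class and group, and by animal where hashtags allowed. In endothelial-like cells the 4 uninjured animals (11.3% to 13.2%) lie below all injured animals, while subcritical and critical macrophage-like animals overlap.

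Critical and subcritical injuries differed in a small set of members that moved alike in every class. At a level of at least 100 CPM (UMIs of a gene scaled to the class total) in both libraries of every class, 78 members could be compared over 6 classes, and 7 were lower in critical cells by at least 0.3 on the log2 scale in all 6. No member was higher by that size in every class. Over all 621 genes at that level, 1.61% were lower and 0.805% higher in every class. The other genes lower in all classes were Rsrp1, Tomm7 and Ndufa3, and the 5 higher ones were mt-Co1, mt-Co2, mt-Co3, mt-Cytb and mt-Atp6, all of the mitochondrial genome.

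Of the 7, 3 belong to the small subunit. Rps29, a zinc-binding protein of the small subunit's head, had log2 differences of -1.54 in mural-like to -1.20 in tenocyte-like and macrophage-like cells. Rps28, which like Rps29 is mutated in some families with Diamond-Blackfan anaemia, ran from -1.14 in mural-like to -0.82 in myogenic-like cells. Rps21 ran from -0.74 to -0.58. The 4 large subunit members were Rpl38 (-1.22 to -0.84), known in mice for its role in patterning the axial skeleton, the zinc-binding Rpl37 (-0.85 to -0.53) and Rpl37a (-0.64 to -0.34), and Rpl6 (-0.46 to -0.33). Rps29, Rps28 and Rpl38 were the 3 lowest members in each of the 6 classes when each class was centred on its own ribosomal protein total. Single clusters showed these members too: Rps29, Rps28, Rpl38, Rpl37 and Rpl37a were lower by at least 0.3 in 15 of 15 clusters, and Rps21 and Rpl6 in 14. Of 295 genes at 100 CPM or more in every cluster, 5 were lower by that size in all 15, and all 5 were members. In the other direction 3 genes were higher throughout, none of them a member.

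In FAP-like cells, the progenitors of the muscle's connective tissue and fat, the levels of these members show how the groups lay. Rps29 stood at 2140 CPM in uninjured, 2481 in subcritical and 1045 in critical cells. Rps28 stood at 1851, 2741 and 1318 CPM, and Rpl38 at 1577, 2128 and 1050. In all 3, critical cells were the lowest and subcritical cells the highest. Rps24 had the reverse order of the injuries, at 1251 CPM in uninjured, 594 in subcritical and 1093 in critical cells. Rpl41 was higher in both injuries, at 3313, 6043 and 4914 CPM. Cluster 10, unnamed and with the lowest ribosomal protein share (3.72% in subcritical and 3.85% in critical cells), also held the difference in Rps29 (-0.98, 95% interval -1.42 to -0.55) and in Rps28 (-0.65).

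Other members held their direction over the classes at smaller or uneven sizes. A further 13 were lower in every class but under 0.3 in at least one, among them Rpl36 (-0.58 to -0.23) and Rpl41 (-0.52 to -0.23), the shortest ribosomal protein and the most abundant mRNA of the set. On the higher side stood 6: Rps24 (0.27 to 0.98), Rpl39 (0.24 to 0.82), Rpl7 (0.03 to 0.56), Rpsa (0.01 to 0.42), Rpl10 and Rpl17. Rps24, another Diamond-Blackfan gene, had the widest range of all. It was highest in tenocyte-like cells and lowest in mural-like cells, where the 95% interval of the difference, -0.05 to 0.60, held 0. By cluster, Rps24 was higher in critical cells in 15 of 15, by at least 0.3 in 13. Rps25, under 100 CPM in some classes, was also higher in 15 of 15, by that size in 14. The paralogue Rpl22l1 was higher in 14 clusters, by that size in 13, and lower in 1. When each class was centred on its own ribosomal protein total, the 3 highest members were mostly Rps24 (5 classes), Rpl39, Rpl7 and Rps25 (3 each), with Rpl22l1, Rpl4, Rpsa and Rps27 in 1 class each. The remaining 52 members differed in sign between classes. The same counts by sign over all genes at that level are not given here, so these counts describe the members alone. Over the 78 members, the differences of any 2 classes had a Pearson correlation of 0.836 to 0.971 and a Spearman correlation of 0.573 to 0.828 (15 pairs), as a description only, since all classes come from the same libraries.

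**Figure D2:**
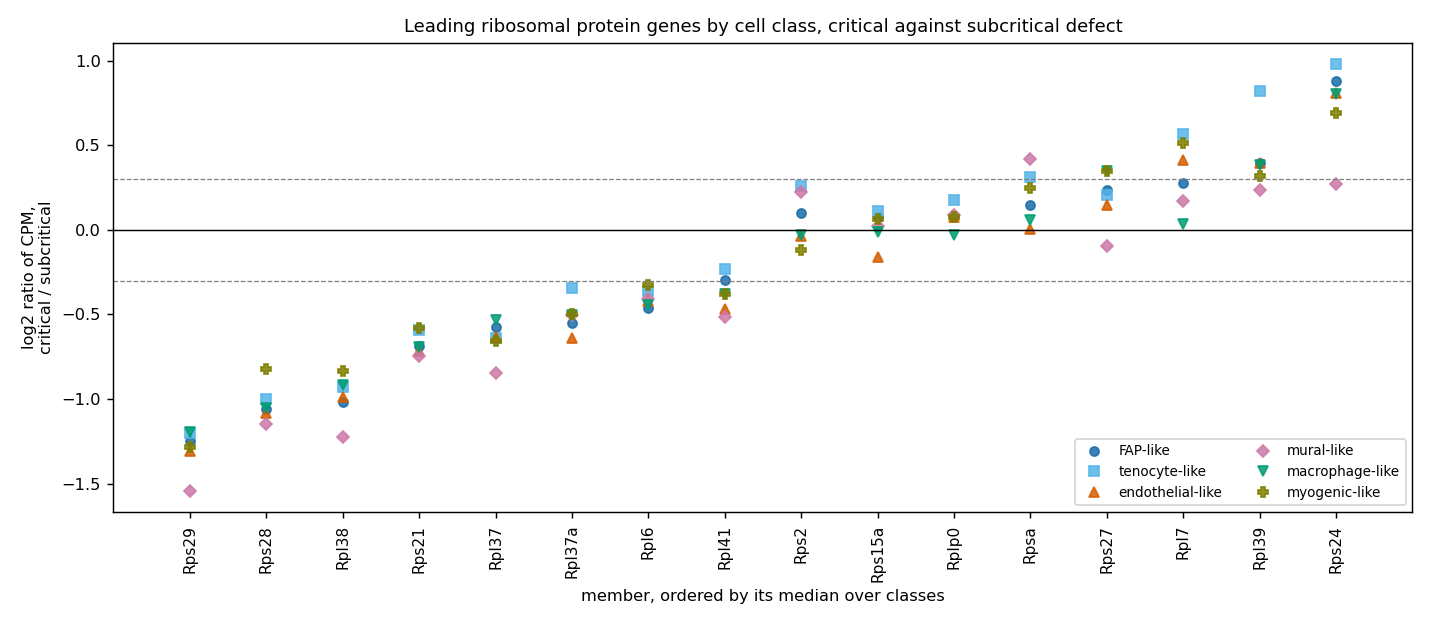
Log2 ratio of critical to subcritical CPM for those of 17 leading members at 100 CPM or more (those that passed between the injuries, fell against uninjured or rose against it by at least 0.9, or were lower in all classes) in each of the 6 cell classes, 1 library per group. Rps29 lies between -1.54 and -1.20 and Rpl38 between -1.22 and -0.84 in all classes, while Rps24 spreads from 0.27 to 0.98.

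Macrophage-like cells allowed a test over animals. The members that passed it were Rps29, Rps28, Rpl38 and Rps21, which fell, and Rps24, which rose, 5 of the 80 members tested, against 0.903% of all 2769 genes tested (0.433% lower, 0.469% higher). Rps29 stood at 2324, 2412, 2775 and 3032 CPM in the subcritical animals and at 1492, 1089, 1110 and 1103 in the critical animals. The groups did not overlap, and critical replicate 1 was the highest of its group. The log2 difference was -1.16 ± 0.124 (SE, adjusted p = 4.2e-08, edgeR quasi-likelihood test with Benjamini-Hochberg adjustment). Rps28 stood at 1337, 1626, 2146 and 2100 CPM in subcritical and at 1025, 763, 875 and 942 in critical animals, again apart, with a difference of -1.02 ± 0.138 (adjusted p = 7.56e-06). Rpl38 (-0.89 ± 0.129, adjusted p = 1.17e-05) and Rps21 (-0.69 ± 0.131, adjusted p = 0.000947) showed no overlap either. Rps24 went the other way, from 377, 468, 400 and 441 CPM in subcritical to 986, 702, 770 and 688 in critical animals, a difference of 0.87 ± 0.149 (adjusted p = 0.000255). Rps25, which is needed for internal initiation on some mRNAs, had a difference of the same size with a wider error (0.87 ± 0.273) and did not pass (adjusted p = 0.175). Of the 75 members that did not pass, 3 also had groups that did not overlap. That count has no share over all genes beside it and is not a result about the members. The median over the 80 members was -0.06, beside 0.00 over all genes. The count of members that fell was 9 without subcritical replicate 1 and 8 without critical replicate 1, and all 5 calls were kept in each alternative run. Over all genes, calls in either direction were 33 and 31 in these runs, beside 25 with all animals.

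Endothelial-like cells gave the same direction for these members. There 8 of 80 passed, against 0.466% of all 2576 genes tested (0.272% lower, 0.194% higher). The 7 members that fell, which were all 7 genes that fell in this comparison, were Rps28 (-1.18 ± 0.149, adjusted p = 1.87e-07), Rps29 (-1.14 ± 0.127, adjusted p = 8.34e-09), Rpl38 (-1.05 ± 0.148), Rps21 (-0.69 ± 0.127), Rpl37a (-0.60 ± 0.120), Rpl41 (-0.59 ± 0.112) and Rpl37 (-0.54 ± 0.130, adjusted p = 0.0261; all by edgeR). Rps29 stood at 3410, 3420 and 3922 CPM in subcritical and at 1542, 1792 and 1598 in critical animals. Rps28 stood at 2496, 2533 and 3093 CPM in subcritical and at 1139, 1195 and 1276 in critical animals. Rpl41 stood at 5923, 5864 and 6423 CPM in subcritical and at 4081, 4146 and 3850 in critical animals. Rps24 rose from 826, 671 and 830 CPM to 1330, 1423 and 1212 (0.76 ± 0.161, adjusted p = 0.00523). In all 8 the animals of the 2 groups did not overlap, which also held for 10 of the 72 members that did not pass. The share of all genes without overlap is not given here, so these counts are not a result about the members. Without subcritical replicate 2 the Rps24 call was lost, and without subcritical replicate 4 that of Rpl37a. Rpl37 lost its call without subcritical replicate 1 or 4 or critical replicate 2 or 4, and with DESeq2. It was also lost with no filter on low counts and with clusters made without members and mitochondrial genes. All 8 kept their sign in each alternative run. Whether the difference between injuries itself differed between endothelial-like and macrophage-like cells was tested in 6 animals with enough cells of both. No member was called with edgeR or DESeq2. Of all 3589 genes, edgeR called 0.0836%, and DESeq2 called no gene. With edgeR, 0 of 80 members had an unadjusted p under 0.05, beside 179 of the 3589 genes. With 6 animals, this test cannot show that the 2 classes shift equally. The log2 difference between the classes was -0.26 ± 0.203 for Rps28 and -0.03 ± 0.246 for Rps24.

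**Figure D3:**
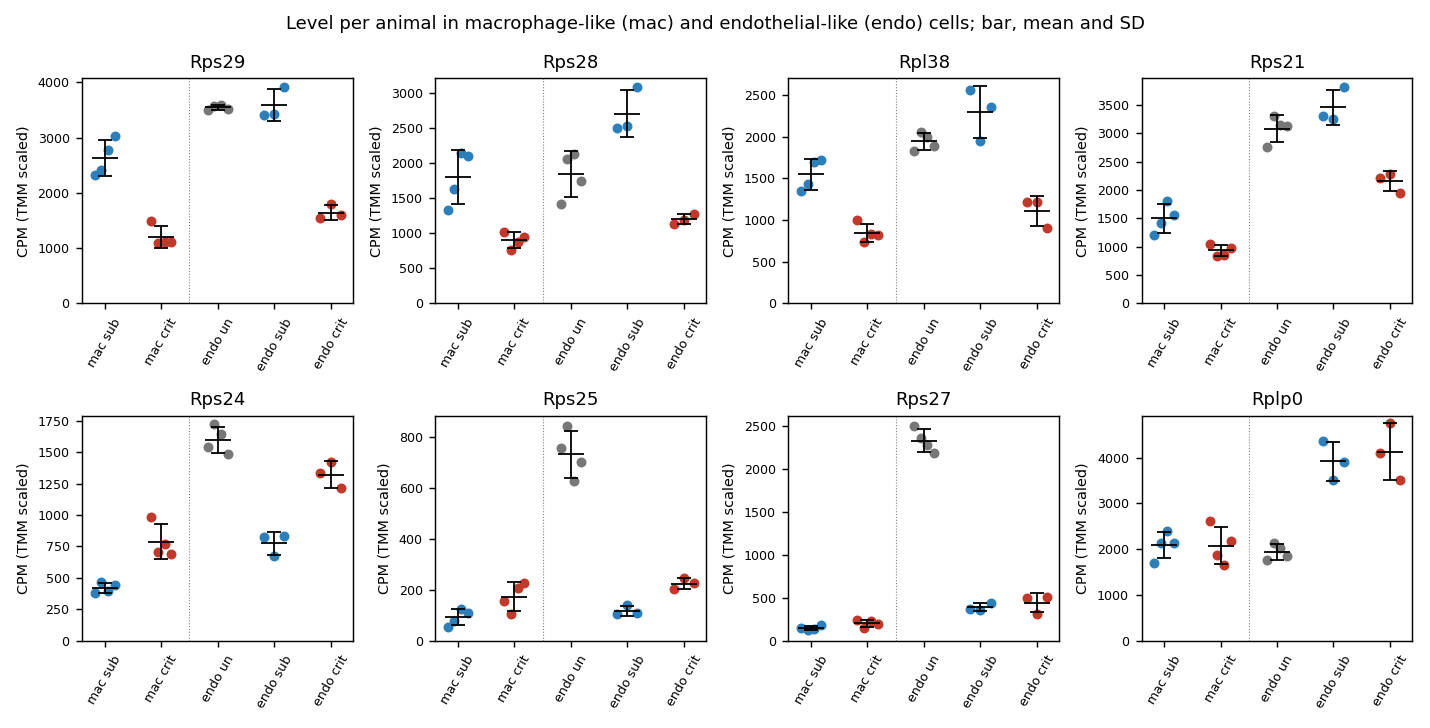
CPM by animal for members of the set in macrophage-like and endothelial-like cells, with 1 point per animal. Rps29 in macrophage-like cells lies at 2324 to 3032 in subcritical and 1089 to 1492 in critical animals, and Rps27 in endothelial-like cells at 2183 to 2500 in uninjured and 316 to 515 in critical animals.

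Against uninjured muscle many members rose in endothelial-like cells, and a few fell steeply. In critical animals 38 of 80 rose, 8 fell and 34 did not pass, and in subcritical animals 51 rose, 5 fell and 24 did not pass. Over all 2576 genes tested, 15.7% passed in each comparison (8.62% higher and 7.1% lower in critical, 8.73% and 6.99% in subcritical). Both comparisons use the same uninjured animals. The median member difference was 0.36 in critical and 0.41 in subcritical cells, beside 0.00 over all genes. By subunit, 22 of 48 large and 16 of 32 small subunit members rose in critical cells, and 32 and 19 in subcritical cells. The number that rose was 21 without critical replicate 2 and 32 without subcritical replicate 4, and with no filter on low counts it was 18 in critical and 27 in subcritical cells. Over all genes, 405 passed in either direction in each comparison. That number was 240 without critical replicate 2 and 239 without subcritical replicate 4. With no filter it was 398 in critical and 418 in subcritical cells. Uninjured and injured endothelial-like cells also lay mostly in different clusters, as given above.

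Among the large subunit members that rose in critical endothelial-like cells were Rpl10, Rpl10a, Rpl11, Rpl13, Rpl15, Rpl17, Rpl18, Rpl19, Rpl23, Rpl24, Rpl27, Rpl28, Rpl29, Rpl3, Rpl32, Rpl35, Rpl39, Rpl4, Rpl7a, Rpl8 and Rplp0. Among the small subunit members were Rps10, Rps13, Rps14, Rps16, Rps19, Rps2, Rps20, Rps27a, Rps3, Rps4x, Rps7, Rps9 and Rpsa. In subcritical cells Rpl17 and Rpl4 did not pass, and Rpl23a, Rpl26, Rpl34, Rpl36a, Rpl36al, Rpl37, Rpl37a, Rpl41, Rpl5, Rpl6, Rplp1, Rplp2, Rps26, Rps28 and Rps6 rose besides the others. Rplp0, the base of the stalk, stood at 1761, 2138, 2019 and 1857 CPM in uninjured, at 4359, 3508 and 3901 in subcritical and at 4111, 4760 and 3517 in critical animals. Both injured groups lay above every uninjured animal, by 0.998 ± 0.117 (adjusted p = 2.21e-09) and 1.07 ± 0.116 (adjusted p = 2.05e-10, both by edgeR). Rps2, at the mRNA entry side of the small subunit, rose by 1.09 ± 0.116 and 0.87 ± 0.116, and Rpsa, also known as the laminin receptor, by 0.99 ± 0.137 and 0.98 ± 0.137. Rpl39, a short protein near the exit tunnel, rose by 0.64 in subcritical (adjusted p = 0.046) and by 1.05 ± 0.210 in critical cells (adjusted p = 0.000206, both by edgeR). The subcritical call was lost with DESeq2, with no filter on low counts and without any of 6 of the 7 animals.

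Rps27 and Rps25 fell furthest. Rps27 stood at 2500, 2359, 2274 and 2183 CPM in uninjured, at 369, 355 and 442 in subcritical and at 494, 316 and 515 in critical animals. The injured groups overlapped each other and lay far below the uninjured one, by -2.56 ± 0.164 (adjusted p = 2.78e-18) and -2.35 ± 0.157 (adjusted p = 1.03e-17, edgeR). Rps25 stood at 755, 843, 626 and 701 CPM in uninjured, at 105, 139 and 108 in subcritical and at 202, 246 and 225 in critical animals, differences of -2.63 ± 0.237 and -1.73 ± 0.203. Rps24 fell in subcritical cells (-1.05 ± 0.144, adjusted p = 1.36e-07) and did not pass in critical cells (-0.29, adjusted p = 0.152). Rpl7 (-0.82 in subcritical and -0.44 in critical cells) and Rps15a (-0.42 and -0.54) fell in both. The Rpl7 call in critical cells was lost with DESeq2 and without uninjured replicate 2 or 3 or critical replicate 3 or 4. The Rps15a call in subcritical cells was lost with DESeq2 and without uninjured replicate 2 or subcritical replicate 1 or 2. The members lower in critical than in subcritical cells split here: Rps29 (-1.12 ± 0.118), Rpl38 (-0.82), Rps28 (-0.64) and Rps21 (-0.53) fell in critical cells. In subcritical cells Rps28 rose (0.54, adjusted p = 0.00145, a call lost without subcritical replicate 4), while Rps29 (0.02, adjusted p = 0.941), Rpl38 (0.23, adjusted p = 0.242) and Rps21 (0.16, adjusted p = 0.378) did not pass.

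FAP-like and mural-like cells, with 1 library per group, showed the same leading members. Over the 3 classes with uninjured cells, 39 of 79 members were higher and 8 lower by at least 0.3 in critical cells, beside 12.4% and 5.3% of 773 genes. In subcritical cells 43 of 78 were higher and 3 lower, beside 12.5% and 4.24% of 754 genes. At a log2 of at least 0.5 the higher members numbered 13 in critical and 17 in subcritical cells, and the lower ones 5 and 2. Over all genes at that size, 36 of 773 were higher and 20 lower in critical cells. In subcritical cells 36 of 754 were higher and 13 lower. Rps27 differed by -2.38 in FAP-like, -2.50 in endothelial-like and -2.09 in mural-like cells in critical muscle, and by -2.61, -2.65 and -1.998 in subcritical muscle. Rps25 differed by -1.61, -1.73 and -1.74 and by -2.51, -2.42 and -2.26 in the same order. Rplp0 was higher by 1.08, 1.16 and 1.07 and by 0.997, 1.08 and 0.98. Rps24 set the classes apart: in subcritical muscle it was lower by -1.07 in FAP-like and -0.99 in endothelial-like cells but by -0.18 in mural-like cells. Centred on the ribosomal protein total of each class, Rps27, Rps25 and Rps29 were the 3 lowest members in critical muscle in all 3 classes. Rplp0 was among the 3 highest in all 3 classes in both injuries, and Rpl31 and Rps26 were each among them in 1 class in subcritical muscle. Over the members, any 2 classes had a Pearson correlation of 0.937 to 0.955 in critical (79 members) and 0.869 to 0.935 in subcritical muscle (78 members), with Spearman correlations of 0.755 to 0.821 and 0.624 to 0.696, again as a description of shared libraries.

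By single cluster, few genes of any kind passed 0.3 in one direction throughout. With single clusters in place of classes, no member was higher by 0.3 in all 8 clusters in either comparison, beside 3 of 477 genes in critical and 1 of 502 in subcritical cells. By the same measure 7 members were lower in critical and 3 in subcritical cells, beside 9 and 7 genes in all. Counted by sign alone, Rps27 and Rps25 were lower in 8 of 8 clusters in both. Under the rule of size and level, Rps27 was not among the 7 in critical cells, nor Rps25 among the 3 in subcritical cells. Rplp0 was higher in 8 of 8 clusters in critical cells, but in unnamed cluster 5 by 0.05, and there it stood at -0.03 in subcritical cells.

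**Figure D4:**
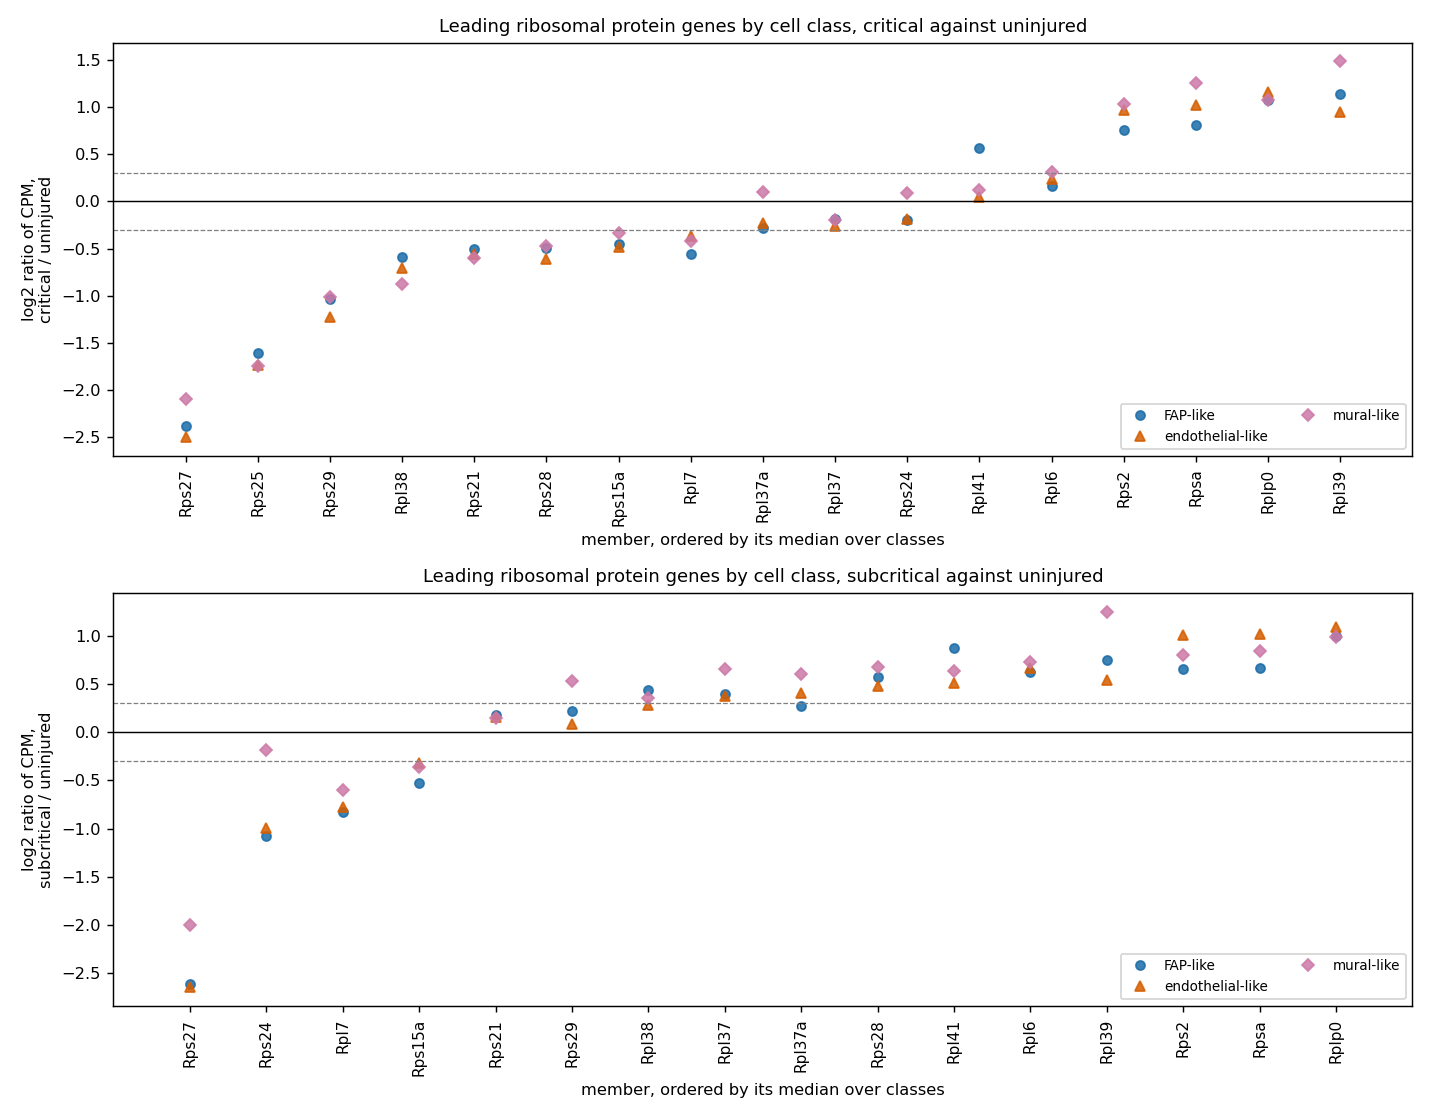
Log2 ratio of injured to uninjured CPM for the same leading members in FAP-like, endothelial-like and mural-like cells, for critical and subcritical muscle, 1 library per group. Rps27 lies between -2.65 and -1.998 and Rplp0 between 0.98 and 1.16 in all 6 class and injury pairs; Rps25 is absent from the subcritical panel because it was under 100 CPM there in FAP-like cells.

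Levels differed by several orders over the set. Over all cells, Rpl41 (68053 UMIs), Rpl13 (58196), Rps2 (53364) and Rplp0 (51080) were among the most abundant. Of the paralogues, Rpl36al had 8677 UMIs and Rps27l 4791, and the others were rarer. Rpl10l had 0 UMIs, which allows up to 0.652 CPM in the shallowest library, Rpl3l, the striated muscle form of Rpl3, had 14 and Rpl39l had 214. Rps27rt, whose coding sequence is nearly that of Rps27, had 309, and in the endothelial-like class it stood at 44.1 CPM (uninjured), 10.6 (subcritical) and 16.7 (critical). Whether reads of the 2 copies were fully separated was not tested. Rps19bp1 had 580 and Rpl7l1 956. Rpl22l1, the paralogue of Rpl22, stood at 86.3, 84.6 and 158 CPM over all uninjured, subcritical and critical cells. Its difference between critical and subcritical FAP-like cells was 0.80 (95% interval 0.56 to 1.04, counting error only), and it did not pass in macrophage-like (0.68, adjusted p = 0.506) or endothelial-like animals (0.81, adjusted p = 0.681, edgeR). Pseudogene rows such as Rpl9-ps6 (15.4, 32.6 and 35.1 CPM) may hold reads of their parent genes.

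Genes that work with the ribosome were compared from lists of the pathway. Of the translation factors and other mRNAs with an oligopyrimidine start, 13 of 27 tested rose and 2 fell in critical against uninjured endothelial-like cells, and 9 rose and 2 fell in subcritical cells. Over all genes tested, 8.62% rose and 7.1% fell in critical cells, and 8.73% and 6.99% in subcritical cells. Among the list's genes Eef1b2 rose by 0.88 and 0.87 and Eef2, the translocation factor, by 0.89 and 0.45, while Eif4a2, a helicase paralogue, fell (-0.78 and -1.77). Between critical and subcritical cells none of 25 (macrophage-like) or 27 (endothelial-like) passed. Fau, which encodes a ribosomal protein fused to a ubiquitin-like protein, rose against uninjured endothelial-like cells in critical (0.32, adjusted p = 0.0251) and in subcritical animals (0.31, adjusted p = 0.0375, both by edgeR). Of the mitochondrial ribosome, 31 or 32 of 78 genes were tested and none passed in any comparison. Of the ribosome biogenesis list only 7 or 5 of 35 could be tested, and none passed. Of the genes of the mitochondrial genome, 8 of 10 tested rose in macrophage-like cells between critical and subcritical animals (median 1.09), and 2 of 10 in endothelial-like cells (median 0.80), beside 0.469% and 0.194% of all genes tested.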

How the data were processed

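The deposited files hold raw UMI counts, 1 matrix per group with 32285 genes and the antibody features, made with Cell Ranger 6.0.2 per the file headers. The submitters' processing notes also name bcl2fastq and the genome GRCm39 (mm39). Cells with at least 200 genes, 500 UMIs and at most 20% mitochondrial UMIs were kept, and cells with several hashtags were removed (60 uninjured, 146 subcritical, 148 critical). Scrublet marked 0, 22 and 3 doublets, too few to have worked. Cells were clustered with scanpy 1.11.5 (2000 variable genes, 1 of them a member, 30 components, 15 neighbours, Leiden 0.8). Hashtags were called at a posterior of 0.5 and at least 2 counts, which tied 38.6% to 44.5% of cells to an animal. This setting and the minimum of 4 markers for a class name were chosen after the clusters and hashtag counts were seen. Counts were summed per animal (at least 20 cells) and tested with edgeR 4.0.16 (TMM, quasi-likelihood, Benjamini-Hochberg adjusted p under 0.05, R 4.3.3). DESeq2 1.42.0 was an alternative. Animal CPM are TMM scaled, and library CPM are not. Library comparisons used a log2 of 0.3 and 100 CPM in both libraries. The edgeR test was tried on data simulated from the macrophage-like animals, critical against subcritical.

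Named members are those that passed any fit or met the shared rule, the 3 highest and lowest per class, the 5 most and least abundant, the paralogues and Fau. Some genes that this rule names are not reported here. Members and lists were chosen with earlier results of these data known. Protein lengths were not analysed here.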

Additional observations from a re-analysis of the deposited data

Results flagged for a closer look

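In macrophage-like cells, critical replicate 1 lay far from the other 3 critical animals in 3 members. Rpl37 stood at 1973 CPM there and at 1308 to 1332 in the others, Rps15a at 1051 against 731 to 784, and Rps29 at 1492 against 1089 to 1110. In all, 54 groups were checked and 3 stood out in this way. Chance alone flags about 1 in 20 groups.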

How the results depend on the processing

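With single clusters in place of classes, the critical share of UMIs against uninjured was lower in 4 of 8 clusters (at most by -1.32 points), where it was higher in all 3 classes, and Rplp0 stood at -0.03 in 1 cluster of subcritical cells. For macrophage-like cells the 1 member higher became 2 with unnamed cluster 0 counted in (an alternative added after the data were seen), and 1 to 2 when single animals were left out. The 4 members lower became 7 with DESeq2, 7 with a hashtag share of 70%, 7 with cluster 0 counted in, and 4 to 9 without single animals. Calls over all genes in either direction, 25 in the main fit, were 19, 21 and 36 in the first 3 of these runs. They were 13 to 33 without single animals. For endothelial-like cells, critical against subcritical, leaving out single animals gave 0 to 1 higher and 5 to 8 lower. Calls over all genes were then 8 to 16, beside 12 with all animals. Against uninjured, the 38 higher in critical cells became 18 with no filter and 21 to 47 without single animals, and the 51 in subcritical cells became 27 with no filter and 32 to 56. With no filter, calls over all genes in either direction were 398 and 418, beside 405 in each comparison with the filter. Without single animals they were 240 to 398 in critical and 239 to 412 in subcritical cells. Between the injuries, the 7 members lower in all classes became 6 at 1000 UMIs or more per cell and 6 with means over cells. At a log2 of at least 0.5 they became 5. Genes in all were 10, 6 and 5 in these runs, beside 10 in the main run. Rpl6 was lost in each, and also at Leiden resolution 0.4, where Rpl41 joined. At a log2 of at least 0.5, the shared counts against uninjured were 13 higher and 5 lower (critical) and 17 higher (subcritical), beside 36, 20 and 36 genes in all. With clusters in place of classes, also added later, both higher counts were 0. The cause of these moves was not tested. The macrophage-like share of UMIs was 11.6% (critical) and 11.6% (subcritical) with clusters made without members and mitochondrial genes, and 12.1% and 12.2% at Leiden resolution 0.4. For single members, 730 values kept their side of the threshold, 33 lost it and 19 gained it. Endothelial-like and difference fits at a hashtag share of 70% (and at least 10 counts) could not be fitted, since too few animals remained. Endothelial-like cells tied to an animal then numbered 178 uninjured, 58 subcritical and 32 critical. At the setting used they numbered 683, 228 and 212. The endothelial-like tests thus rest on hashtag calls from few counts, and how many cells were assigned to the wrong animal was not tested. No paired analysis was possible because the hashtag numbers name reagents and the labels pair no animals across groups.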
